A study of Mus musculus with 6 samples.

Results

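The genes described here are 10 enzymes of methionine, S-adenosylmethionine (SAM) and polyamine metabolism. They were chosen by gene symbol for their place in the pathway, though with earlier results of these data known. They are Mtr and Mtrr (methionine synthesis), Mat2a, Mat2b and Ahcy (SAM supply and homocysteine release), Cbs and Cth (transsulfuration), Mtap (methionine salvage), and Odc1 and Srm (polyamine synthesis). All 10 were found among the 21878 genes listed in each table. Expression had been measured by RNA sequencing in hematopoietic stem cells sorted from the bone marrow of wild-type mice, 3 libraries being from mice fed a control diet (CD) and 3 from mice fed for 3 months a diet that lacked serine and glycine (SGFD). The sort took cells positive for Kit and Sca1 and negative for lineage antigens, CD34 and CD135, which the labels call long-term hematopoietic stem cells (LT-HSCs). The labels give no age, sex or strain and do not say whether a library came from 1 mouse or a pool, and p-values therefore reflect only how far these libraries spread, which may be technical.

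In the methionine cycle, methionine synthase (Mtr) moves a methyl group from methyl-folate to homocysteine, and its reductase (Mtrr) keeps the cobalamin cofactor active. Methionine adenosyltransferase (Mat2a, with its regulatory subunit Mat2b) turns methionine into SAM, the methyl donor for DNA, histones and many small molecules. After methyl transfer, Ahcy splits S-adenosylhomocysteine into adenosine and homocysteine, which is remethylated or joined to serine by Cbs and then cleaved to cysteine by Cth. Decarboxylated SAM feeds polyamine synthesis: Odc1 makes putrescine, Srm makes spermidine, and Mtap recycles the methylthioadenosine left over. Serine therefore enters this pathway both as a source of folate-bound methyl groups and as the partner of homocysteine in transsulfuration.

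Of the 10 genes, 8 passed the filter of at least 1 FPKM in at least 3 libraries (FPKM, a fragment count divided by gene length and library total). With SGFD, Ahcy, Odc1 and Srm rose and Mtr, Mtrr and Mat2a fell, while Mat2b and Mtap did not pass the test. By log2 fold change, Ahcy had the largest rise of the members, from 68.5 ± 0.887 to 98.1 ± 2.02 FPKM (SD, n = 3 each), and Mtrr the largest fall, from 6.43 ± 0.287 to 4.73 ± 0.696 FPKM. The test was limma on log2(FPKM + 1), a scale that understates changes of low genes, with Benjamini-Hochberg adjustment over 10620 genes and a threshold of 0.05. In that test 59.4% of all tested genes passed, 17.7% higher and 41.8% lower with SGFD, against 3 higher and 3 lower of the 8 members tested. Across the tested genes the median log2 fold change stood at -0.13, below that of the 8 members (-0.00). The diets did not overlap for 65.2% of tested genes and for 7 of the 8 members, all but Mat2b. These are bulk libraries, in which fewer cells of a type and less RNA per cell cannot be told apart.

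Libraries held 18684130 to 19846935 recovered fragments, with no separation of the diets by depth. The sum of FPKM did separate them, at 427769 to 433592 in CD and 464222 to 485048 in SGFD libraries. So did the number of genes above 0, at 14049 to 14106 in CD and 13781 to 13943 in SGFD libraries. The cells carried LT-HSC markers on both diets, but the marker sums moved with diet. Over 10 LT-HSC markers the sum was 177.6 to 181.6 FPKM in CD and 87.4 to 87.9 FPKM in SGFD libraries, and 7 of the 9 tested fell. Over 6 granulocyte-monocyte progenitor markers (such as Mpo and Elane) it was 869 to 899 and 3445 to 3829 FPKM, and all 6 rose. Over 6 monocyte markers it was 64.9 to 65.9 and 216.7 to 232.1 FPKM, and all 6 rose. Sums of 5 macrophage markers (7.28 to 8.47 against 1.05 to 1.54 FPKM), 6 erythroid markers (26.5 to 28.3 against 10.3 to 11.1) and 6 B lymphoid markers (27.4 to 36.9 against 25.5 to 26.4) were lower with SGFD. Of those tested, 4 of 4 macrophage, 3 of 3 erythroid and 3 of 4 B lymphoid markers fell. Cd79b, which made up most of the B lymphoid sum, did not pass and overlapped between diets (23.1 ± 2.96 FPKM in CD and 24.0 ± 0.339 FPKM in SGFD libraries). None of these markers was under 0.1 FPKM in every library. These sums differed between the same libraries as the enzymes did, and their part in the enzymes' changes was not tested.

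**Figure D1:**
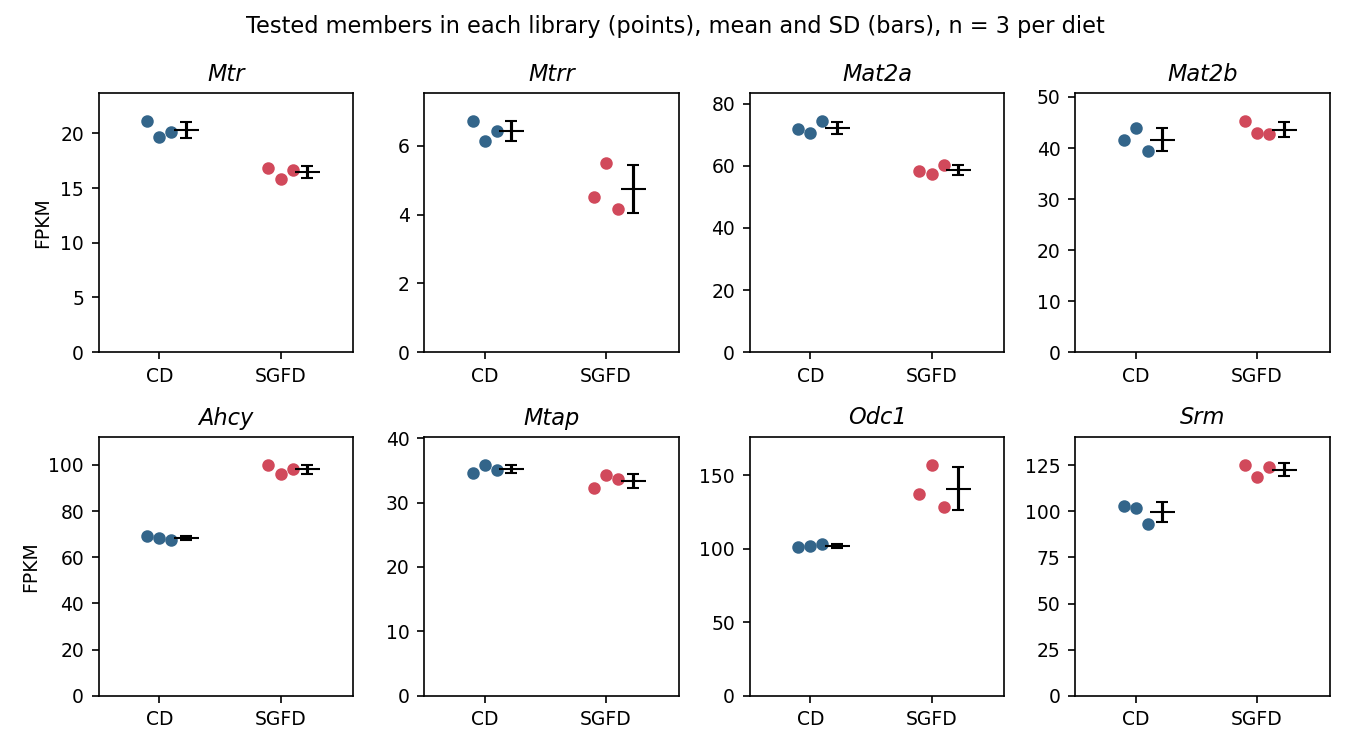
FPKM (vertical axes, starting at 0) of the 8 tested members in each library of the 2 diets; bars give the mean and SD of 3 libraries. The SGFD points of Ahcy, Odc1 and Srm lie above all CD points, and those of Mtr, Mtrr and Mat2a lie below them.

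The DNA next to the starts of members that passed the test is printed to show the sequence behind the motif counts that follow, for Mtr, Mtrr, Mat2a, Ahcy and Odc1. RefSeq windows of GRCm38.p6 (250 bases before to 50 after a start) were matched for 8 of the 10 genes. For these 5 members a stretch upstream of the start, outside exons of protein-coding genes, is given 5′ to 3′ on the gene's strand. Capitals mark matches to CCAAT (or ATTGG on the other strand) and TATAAA. The stretches are chr13:12258200-12258299, chr13:68582170-68582233, chr6:72439559-72439658 and chr2:155074498-155074597 on the minus strand and chr12:17544694-17544793 on the plus strand.
Mtr: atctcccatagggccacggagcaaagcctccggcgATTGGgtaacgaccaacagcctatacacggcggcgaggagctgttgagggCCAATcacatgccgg
Mtrr: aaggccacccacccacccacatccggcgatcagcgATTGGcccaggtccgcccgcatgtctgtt
Mat2a: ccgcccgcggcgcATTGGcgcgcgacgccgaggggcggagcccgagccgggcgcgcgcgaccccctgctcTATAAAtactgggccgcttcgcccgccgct
Ahcy: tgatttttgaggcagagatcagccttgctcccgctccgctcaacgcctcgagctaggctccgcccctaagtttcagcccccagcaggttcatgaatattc
Odc1: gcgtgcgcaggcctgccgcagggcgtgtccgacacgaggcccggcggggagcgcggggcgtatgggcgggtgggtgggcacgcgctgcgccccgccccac
Motifs were searched on both strands. A member was counted if any of its windows held the motif, and a gene can have several windows, as Mtrr does. The shares given beside these counts are of single windows, so counts and shares are not in the same unit. CCAAT was in the windows of 7 of 8 members, Odc1 being the exception, and in 37.4% of all 32851 windows. The match of Ahcy begins 237 bases before the start, outside the printed stretch, so its capitals would lie beyond the letters shown. TATAAA was in that of Mat2a alone, 32 bases before the start, against 13.6% of all windows. The E-box CACGTG was found only in the window of Cbs, 229 bases before the start, against 7.15% of all windows, and the amino acid response element TGATGNAAN in none of the 8, against 3.95%. CCAAT and TATAAA were added to the search after the sequences had been seen, and a match describes the letters of this window only.

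Both enzymes of methionine synthesis fell with SGFD, Mtr by 19.0% and Mtrr by 26.4% of the CD mean. Mtr (chromosome 13, 12181331 to 12258199) had 21.1, 19.6 and 20.2 FPKM in the CD libraries and 16.8, 15.8 and 16.7 FPKM in the SGFD libraries. Every SGFD value lay below every CD value, as for 45.5% of tested genes. The log2 fold change was -0.29 ± 0.06 (SE; limma, adjusted p = 0.00151). Mtrr (chromosome 13, 68560780 to 68582169) was the lowest of the tested members, with 6.72, 6.14 and 6.44 FPKM in CD and 4.51, 5.51 and 4.18 FPKM in SGFD libraries. The groups did not overlap, and SGFD replicate 2 lay nearest to the CD values. Its log2 fold change was -0.38 ± 0.09 (limma, adjusted p = 0.00578), and it did not pass after quantile normalization (adjusted p = 0.161). The fall of Mtr was lost when the dependence on transcript length was removed, as given with the length comparison.

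The enzymes of SAM supply and homocysteine release went in different directions: Mat2a, which makes SAM, fell by 18.9% while Ahcy, which clears the product of methyl transfer, rose by 43.2%. Mat2a (chromosome 6, 72432796 to 72439556) had 71.8, 70.5 and 74.3 FPKM on the control diet and 58.2, 57.3 and 60.3 FPKM on SGFD. The groups lay apart by several times the spread within them, and the log2 fold change was -0.30 ± 0.04 (limma, adjusted p = 0.000223). Mat2b (chromosome 11, 40679314 to 40695203), whose product binds and regulates Mat2a, had 41.5, 43.9 and 39.5 FPKM in CD and 45.2, 42.9 and 42.7 FPKM in SGFD libraries. Those groups overlapped, and its log2 fold change of 0.07 had a 95% interval of -0.05 to 0.18 (limma, adjusted p = 0.284). Mat2b stood 0.20 above the median tested gene, and after median-ratio scaling of the libraries Mat2b passed as higher (log2 fold change of 0.20, adjusted p = 0.00924). It also passed as higher with array quality weights (log2 fold change of 0.11; limma, adjusted p = 0.0370).

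Ahcy (chromosome 2, 155059310 to 155074497) had 69.4, 68.5 and 67.6 FPKM in CD and 100.1, 96.1 and 98.1 FPKM in SGFD libraries. Its lowest SGFD value lay far above its highest CD value (values lay apart in this direction for 19.6% of tested genes), and the log2 fold change was 0.51 ± 0.04 (limma, adjusted p = 4.7e-06). Ahcy has 3 near copies among annotated genes, so the authors' counting may have split fragments between them. Gm4737, also annotated as protein-coding, matches 2083 bases of the Ahcy transcript at 99.7% identity, and the processed pseudogenes Gm9826 and Gm5638, not analysed here, match 1299 and 1128 bases at 99.2% and 94.5%. Gm4737 itself rose from 12.03 ± 0.140 to 16.8 ± 1.33 FPKM (limma, adjusted p = 0.000312), in the same direction as Ahcy. Mat2a has 1 such copy, the processed pseudogene Gm9523 (95.2% identity over 1065 bases, not analysed here), so its level and its ratios to other members are uncertain in the same way. In the Mat2a gene, 11.3% of annotated exon bases overlap the transcript Particl on the opposite strand. The library kit keeps strand, but whether the counting used it is not given in the sources used here.

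Cbs and Cth, the enzymes of transsulfuration, through which serine carbon becomes cysteine, were barely detected with either diet and did not enter the test. Whole fragments could be recovered from the FPKM values up to a whole-number factor per gene, and the counts below are the smallest that fit. Cbs (chromosome 17, 31612623 to 31637233) had 7, 2 and 1 fragments with CD and 6, 2 and 2 with SGFD, or 0.133, 0.0386 and 0.0193 FPKM and 0.114, 0.0364 and 0.0385 FPKM. The total was 10 fragments with each diet, and replicate 1 held most of them on both diets. The ratio of SGFD to CD, scaled to library totals, was 0.978 with an exact 95% interval of 0.365 to 2.62, so a difference was not detectable at this depth. Cth (chromosome 3, 157894248 to 157925081) had 8, 11 and 5 fragments with CD and 12, 3 and 0 with SGFD. Its ratio was 0.611, with an interval of 0.298 to 1.21 that covers counting error only. The SGFD libraries ranged from the highest to the lowest count of all 6, and the count of 0 in SGFD replicate 3 allows up to 0.0875 FPKM, the worth of 3 fragments.

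Of the enzymes of polyamine synthesis, Odc1 and Srm, which act in turn on the way to spermidine, both rose, and they were the most abundant members. Odc1 (chromosome 12, 17544808 to 17551502), the rate-limiting ornithine decarboxylase, had 100.8, 101.7 and 103.0 FPKM in CD and 137.5, 157.2 and 128.1 FPKM in SGFD libraries. The CD libraries lay close together, whereas SGFD replicate 2 stood above the other 2 SGFD libraries. The log2 fold change was 0.46 ± 0.06 (limma, adjusted p = 0.000192), and without SGFD replicate 2 it was 0.38 with the call kept. The Odc1 transcript matches 13 other annotated genes, all of them processed pseudogenes, at 91.8% to 97.8% identity over at least 200 bases, so its level is uncertain in the same way as that of Ahcy; those genes were not analysed here. Srm (chromosome 4, 148591513 to 148594619), spermidine synthase, had 103.1, 102.0 and 93.2 FPKM in CD and 125.3, 118.8 and 123.9 FPKM in SGFD libraries. The groups did not overlap, and the log2 fold change was 0.30 ± 0.05 (limma, adjusted p = 0.000416). Srm has 1 near copy, the processed pseudogene Gm5364 (91.2% identity over 902 bases, not analysed here), and the same uncertainty holds for its level and for the ratios that use Odc1 or Srm.

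Mtap (chromosome 4, 89137370 to 89181090), which returns the sulfur of methylthioadenosine to methionine, was close to level. It had 34.7, 35.9 and 35.1 FPKM in CD and 32.2, 34.3 and 33.7 FPKM in SGFD libraries. All SGFD values were below all CD values, but the gap was small, and the log2 fold change of -0.08 had a 95% interval of -0.18 to 0.03 (limma, adjusted p = 0.179). Its direction turned under median-ratio scaling (log2 fold change of 0.06) and with the length trend removed (0.0039), and it passed as lower with array quality weights (-0.11; limma, adjusted p = 0.0216).

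Ordered by mean FPKM with CD, the members ran from Odc1 (102) and Srm (99.4) through Mat2a (72.2), Ahcy (68.5), Mat2b (41.6), Mtap (35.2), Mtr (20.3) and Mtrr (6.43) to Cth (0.233) and Cbs (0.0636). Neighbours at the top, Odc1 and Srm, overlapped in their CD values, whereas the CD values of the other neighbours in this order did not overlap. With SGFD, Ahcy stood above Mat2a in all 3 libraries and Odc1 above Srm in all 3. In CD libraries, the means of Odc1 and Srm exceeded those of 94.5% and 94.4% of tested genes, and Mtrr that of 28.8%.

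Ratios between members within a library do not depend on how libraries are scaled to each other. They still carry the dependence of fold changes on transcript length that is given below. Among genes of like length the median log2 fold change was 0.13 for Srm, -0.03 for Odc1 and -0.07 for Ahcy, Mat2b and Mtap. That median was -0.13 for Mat2a and Mtrr and -0.38 for Mtr, and no ratio was adjusted for length. The ratio of Mat2a to Ahcy was 1.03, 1.03 and 1.10 in the CD libraries and 0.581, 0.596 and 0.614 in the SGFD libraries, a fall of 0.82 on the log2 scale. The FPKM of Mat2a thus went from slightly above that of Ahcy to well below it. These are transcript levels and not amounts or activities of the enzymes. Mat2a to its partner Mat2b went from 1.73, 1.61 and 1.88 to 1.29, 1.33 and 1.41, a log2 difference of -0.37. Srm to Mtap, 2 enzymes linked through methylthioadenosine, went from 2.97, 2.84 and 2.66 to 3.89, 3.47 and 3.68, a log2 difference of 0.38. In these 3 ratios the diets did not overlap; each had an exact two-sided permutation p of 0.1, the smallest that 3 against 3 libraries allow, and 0.2 after adjustment over the 6 ratios computed. The ratios of Odc1 to Srm and of Mtr to Mtrr overlapped between diets (exact permutation p of 0.3 and 0.4), with SGFD replicate 2 the highest library for the first and the lowest for the second. Ahcy to Cbs rested on 1 to 7 Cbs fragments a library (exact permutation p of 0.7), and Cbs to Cth was not computed because Cth was at 0 in 1 library.

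**Figure D2:**
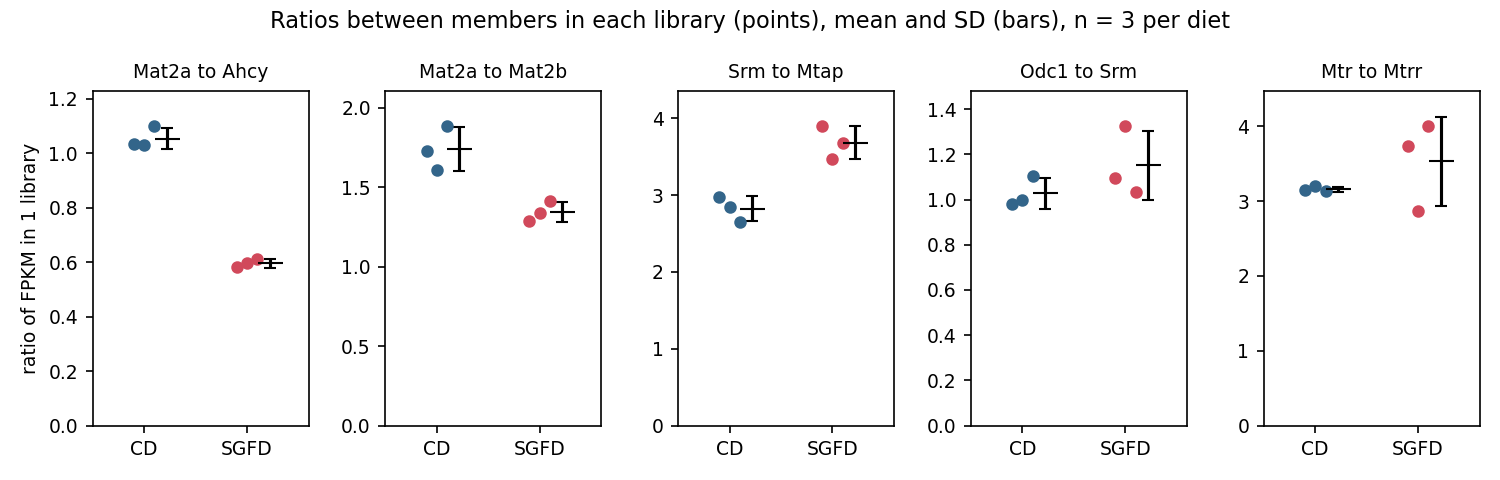
Ratio of the FPKM of 2 members in each library (vertical axes, starting at 0) for 5 ratios; bars give the mean and SD of 3 libraries per diet. Mat2a to Ahcy drops from between 1.03 and 1.10 to between 0.581 and 0.614, while Odc1 to Srm and Mtr to Mtrr overlap.

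Fold changes in these data depend on transcript length, so each member was set beside tested genes of like length. Tested genes were divided into 10 bins by their longest annotated transcript; the median gene changed by 0.13 (log2) in the shortest bin and by -0.38 in the longest. Mtr, with a transcript of 8294 bases, fell in the longest bin, where 77.4% of 1054 genes were lower with SGFD. Its fold change exceeded that of 66.8% of these genes, so Mtr fell less than most genes of its length. With the length trend removed in each library, the log2 fold change of Mtr was 0.07 (limma, adjusted p = 0.384). Ahcy and Odc1 stood above 96.1% and 94.7% of genes in their bins, and Srm, in the shortest bin with 1338 bases, above 75.1% of its bin. Mat2a and Mtrr stood above 28.37% and 20.02% of the genes in their shared bin, where 41.9% were lower. With the length trend removed, Ahcy (0.57), Odc1 (0.49) and Srm (0.23) still passed as higher and Mat2a (-0.18) and Mtrr (-0.23) as lower.

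**Figure D3:**
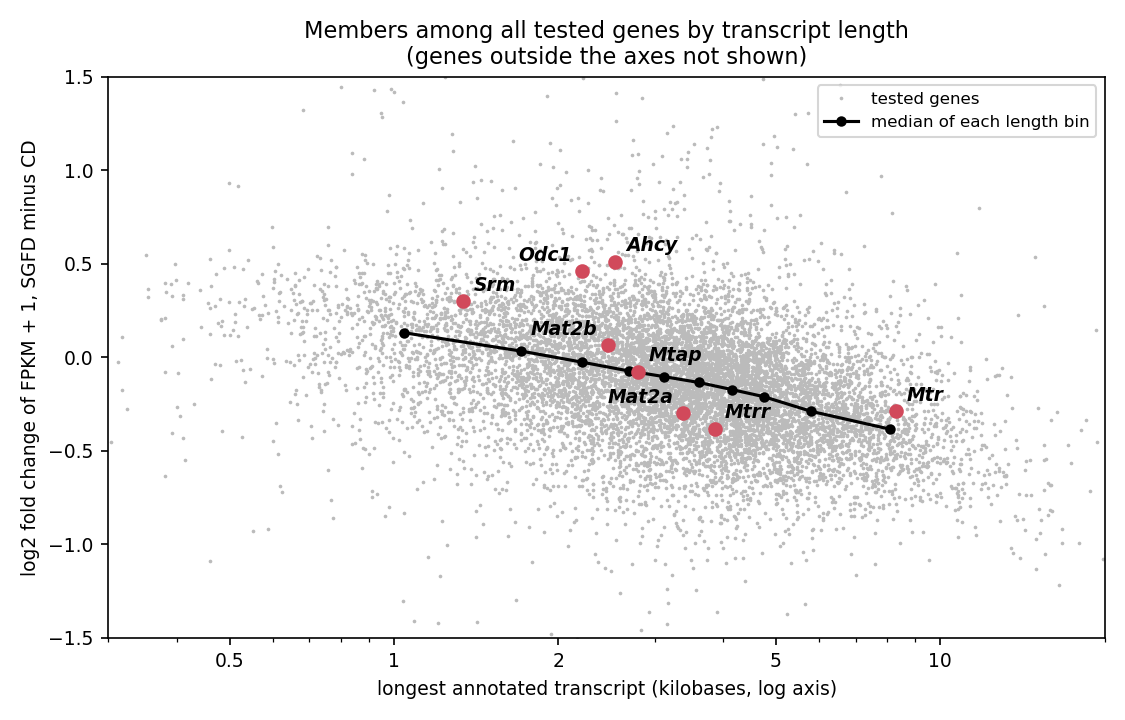
Log2 fold change of FPKM + 1, SGFD minus CD (vertical axis), against the longest annotated transcript in kilobases (horizontal log axis) for tested genes (grey), the median of each of 10 length bins (black) and the 8 tested members (red). Mtr lies above the median of its bin, Mtap on the line of medians, and Ahcy and Odc1 well above it.

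Of the members, Ahcy, Odc1, Srm and Mat2a kept direction and call in all 17 alternative analyses run. Log2 fold changes ranged from 0.39 to 0.65 for Ahcy, from 0.31 to 0.60 for Odc1, from 0.16 to 0.44 for Srm and from -0.38 to -0.16 for Mat2a.

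**Figure D4:**
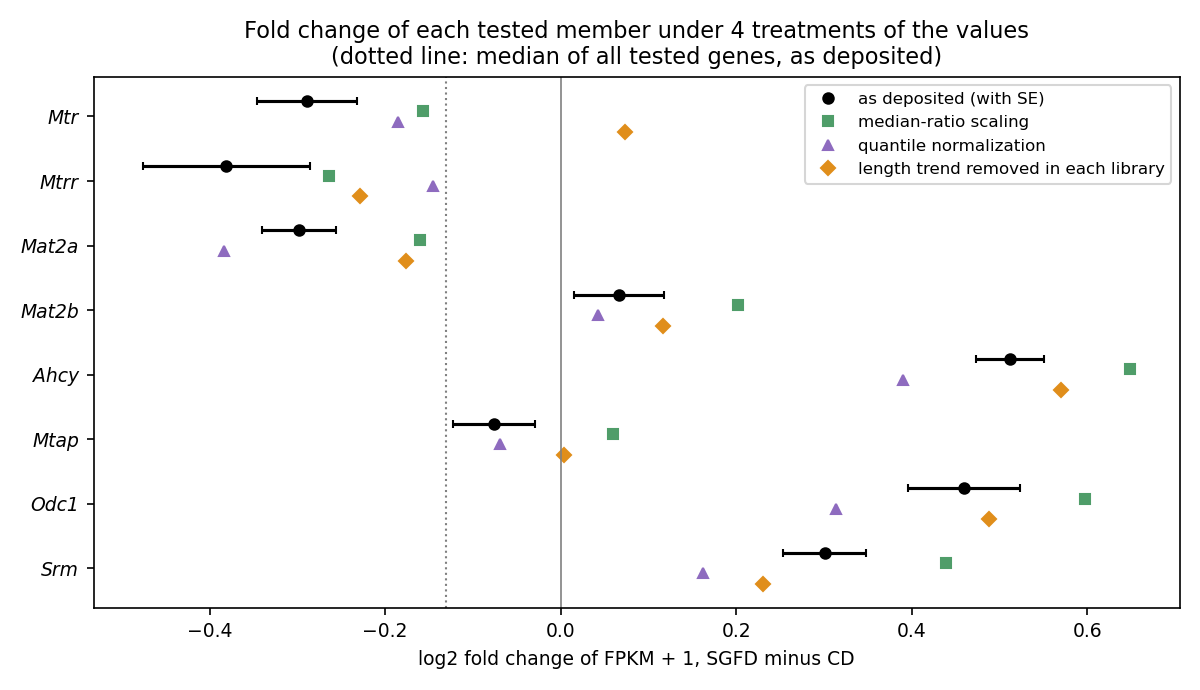
Log2 fold change of FPKM + 1, SGFD minus CD (horizontal axis), for each tested member with values as deposited (black, with SE) and with 3 other treatments (median-ratio scaling in green, quantile normalization in purple, length trend removed in orange). Ahcy, Odc1 and Srm lie right of 0 and Mat2a and Mtrr left of 0 in all 4, whereas Mtr and Mtap cross 0.

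The other genes of these pathways were taken from lists of 70 symbols, of which 69 were listed and 57 tested. With SGFD, 17 rose (29.8%) and 16 fell (28.1%), beside 17.7% and 41.8% of all tested genes, and their median log2 fold change was 0.03 against -0.13. Counts for single lists rest on 2 to 11 tested genes each and are to be read beside the shares of all tested genes. In the list of methionine synthesis and cobalamin supply, 1 of 9 tested genes rose and 3 fell. Mmaa, a chaperone of mitochondrial cobalamin, fell from 1.24 ± 0.105 to 0.725 ± 0.145 FPKM (limma, adjusted p = 0.00864). Mmaa reached 1 FPKM only in the CD libraries, so the filter itself favoured a fall, and 13 of the 17 alternatives tested it. Mmachc, which processes incoming cobalamin, rose by 0.18 on the log2 scale and Mmab fell by 0.24. The calls of Mmachc and Mmab were fragile: leaving out single libraries ended each of them 4 times (adjusted p of 0.0685 without CD replicate 1, 0.145 without CD replicate 3, 0.0804 without SGFD replicate 1 and 0.0946 without SGFD replicate 3 for Mmachc; 0.0882 without CD replicate 2, 0.158 without CD replicate 3, 0.138 without SGFD replicate 1 and 0.0507 without SGFD replicate 3 for Mmab). Bhmt and Bhmt2, which remethylate homocysteine from betaine in liver, were listed at 0 in every library.

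Of 6 tested genes of SAM and homocysteine handling, 1 rose (16.7%) and 3 fell (50%), beside 17.7% and 41.8% of all tested genes. Ahcyl2, an Ahcy-like protein, fell from 4.22 ± 0.0771 to 2.28 ± 0.147 FPKM (limma, adjusted p = 9.12e-05), against the direction of Ahcy itself. Ahcyl1, the other Ahcy-like gene, fell from 48.0 ± 0.882 to 43.0 ± 2.59 FPKM, a call that ended without CD replicate 1, CD replicate 3 or SGFD replicate 2 (adjusted p of 0.0578, 0.0772 and 0.0513). Bmt2, a SAM sensor of the mTORC1 pathway, fell from 6.32 ± 1.09 to 4.20 ± 0.3004 FPKM (adjusted p = 0.00353). Adk, which removes the adenosine that Ahcy releases, rose from 12.1 ± 0.0801 to 13.5 ± 0.0496 FPKM (adjusted p = 0.0415). The Adk call ended in 5 of the 6 fits that left out a library (adjusted p of 0.0955, 0.102 and 0.106 without CD replicates 1, 2 and 3, and 0.0961 and 0.0636 without SGFD replicates 1 and 3). Mat1a, the liver form of the SAM synthetase, was listed at 0 in every library.

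Of 9 tested genes of transsulfuration and sulfur oxidation, 3 rose (Got1, Got2 and Sqrdl) and 3 fell (Csad, Suox and Ado). Got2, the mitochondrial aspartate aminotransferase, rose from 90.6 ± 3.30 to 126.8 ± 10.4 FPKM (limma, adjusted p = 8.9e-05). Sqrdl, which oxidizes sulfide, rose from 4.82 ± 0.408 to 6.86 ± 0.667 FPKM (adjusted p = 0.00213). Csad, which makes the taurine precursor hypotaurine, fell from 11.7 ± 0.653 to 8.91 ± 0.304 FPKM (adjusted p = 0.00128), and the sulfite oxidase Suox from 5.75 ± 0.505 to 4.08 ± 0.228 FPKM (adjusted p = 0.00211). The call of Got1 ended without CD replicate 3 (adjusted p = 0.056) and that of Ado without any 1 of CD replicates 1, 2 and 3 or SGFD replicates 1 and 3 (adjusted p of 0.109, 0.115, 0.063, 0.084 and 0.0686). In methionine salvage, Mri1 rose by 0.22 on the log2 scale (adjusted p = 0.0169; 0.0776 without CD replicate 3), while Adi1 fell by 0.16 (adjusted p = 0.00906). Apip and Enoph1, the other salvage enzymes tested, did not pass.

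Amd1 and Sms, which make decarboxylated SAM and spermine, did not pass the test. Amd1 had 46.0 ± 0.558 FPKM in CD and 42.8 ± 0.992 FPKM in SGFD libraries (limma, adjusted p = 0.0572), and Sms 22.4 ± 0.559 and 21.2 ± 1.33 FPKM (adjusted p = 0.290). Every SGFD value of Amd1 lay below every CD value, as for 45.5% of tested genes. Both Amd1 and Sms passed as lower with array quality weights, and 1 of the 2 did so after quantile normalization. Of 7 tested genes of polyamine control and breakdown, 2 rose and 1 fell. Paox, which oxidizes acetylated polyamines, rose from 12.2 ± 1.15 to 19.3 ± 0.130 FPKM (adjusted p = 5.94e-05). Oaz1, the antizyme that sends Odc1 protein to the proteasome, rose from 365 ± 8.23 to 444 ± 19.2 FPKM (adjusted p = 0.000304), a call lost after quantile normalization (adjusted p = 0.924). Smox, spermine oxidase, fell from 11.4 ± 0.308 to 9.33 ± 1.19 FPKM (adjusted p = 0.0171), a call that ended without CD replicate 1 (adjusted p = 0.0587) or SGFD replicate 1 (adjusted p = 0.0553).

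Spermidine is the substrate for hypusine, a modified lysine found in the translation factor eIF5A, and 3 of the 4 genes of this step rose with none falling. Eif5a rose from 488 ± 4.14 to 656 ± 31.8 FPKM (limma, adjusted p = 2.66e-05). Dhps, which attaches the spermidine part, rose from 13.9 ± 0.606 to 16.9 ± 0.657 FPKM, and Dohh, which hydroxylates it, from 25.8 ± 1.001 to 31.8 ± 0.226 FPKM (adjusted p of 0.00391 and 0.000578). Eif5a2 did not pass. Eif5a, Dhps and Dohh have short transcripts (1437, 1333 and 1444 bases) and Eif5a2 a long one (5027 bases). In the shortest length bin, which holds Dhps, 443 of 1055 genes were higher. In the next, which holds Eif5a and Dohh, 315 of 1056 were, and in that of Eif5a2 85 of 1052. Eif5a, Dhps and Dohh kept their calls with the length trend removed. Among 5 carriers of methionine and other large neutral amino acids, 3 rose and 1 fell. Slc7a5 rose from 38.0 ± 1.38 to 55.4 ± 2.48 FPKM (adjusted p = 1.74e-05) and its partner chain Slc3a2 from 23.3 ± 0.225 to 30.0 ± 2.62 FPKM (adjusted p = 0.000971). Slc7a8 rose by 0.25 on the log2 scale with overlapping groups (adjusted p = 0.0496), a call that only SGFD replicate 1 could be left out of without ending it (0.0683 to 0.156 without another library). Slc43a2 fell from 10.4 ± 0.229 to 6.93 ± 0.671 FPKM (adjusted p = 0.000264), a call lost with the length trend removed (adjusted p = 0.0788).

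Of 11 tested methyltransferases that use SAM on small molecules and proteins, 3 rose (27.3%) and 4 fell (36.4%). Among all tested genes these shares were 17.7% and 41.8%. The arginine methyltransferases Prmt1 and Prmt5 rose, from 151.4 ± 1.63 to 190.0 ± 10.2 FPKM and from 48.7 ± 2.19 to 56.6 ± 2.33 FPKM (limma, adjusted p of 0.000181 and 0.00415), as did Pemt. Hnmt, which methylates histamine, fell from 5.70 ± 0.0667 to 3.90 ± 0.634 FPKM (adjusted p = 0.00265), and Icmt, which methylates prenylated proteins, by 0.23 on the log2 scale (adjusted p = 0.00771). Carm1 also fell, but lost the call without CD replicates 1, 2 or 3 or SGFD replicate 1 (adjusted p of 0.0706, 0.0699, 0.0712 and 0.0637).

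Other scalings and removal of the length trend also ended calls among the wider genes named, beside the losses of Oaz1 and Slc43a2 given above. Quantile normalization ended those of Mmaa, Mmab, Bmt2, Suox, Ado, Smox, Hnmt, Icmt and Carm1 (limma, adjusted p of 0.292, 0.796, 0.125, 0.193, 0.634, 0.384, 0.111, 0.256 and 0.0546). Removal of the length trend ended those of Mmaa, Mmab, Ahcyl1, Ado, Icmt and Carm1 (adjusted p of 0.365, 0.185, 0.949, 0.990, 0.85 and 0.996). Median-ratio scaling ended those of Mmab, Adi1, Ahcyl1, Ado, Smox, Icmt and Carm1 (adjusted p of 0.274, 0.724, 0.771, 0.425, 0.18, 0.156 and 0.99994). Upper-quartile scaling ended those of Mmab and Ado (adjusted p of 0.0511 and 0.0571). Of the 33 wider genes called, 13 kept call and direction in every alternative that tested them. The 11 higher ones were Dhps, Dohh, Eif5a, Got2, Paox, Pemt, Prmt1, Prmt5, Slc3a2, Slc7a5 and Sqrdl, and the 2 lower ones Ahcyl2 and Csad.

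**Figure D5:**
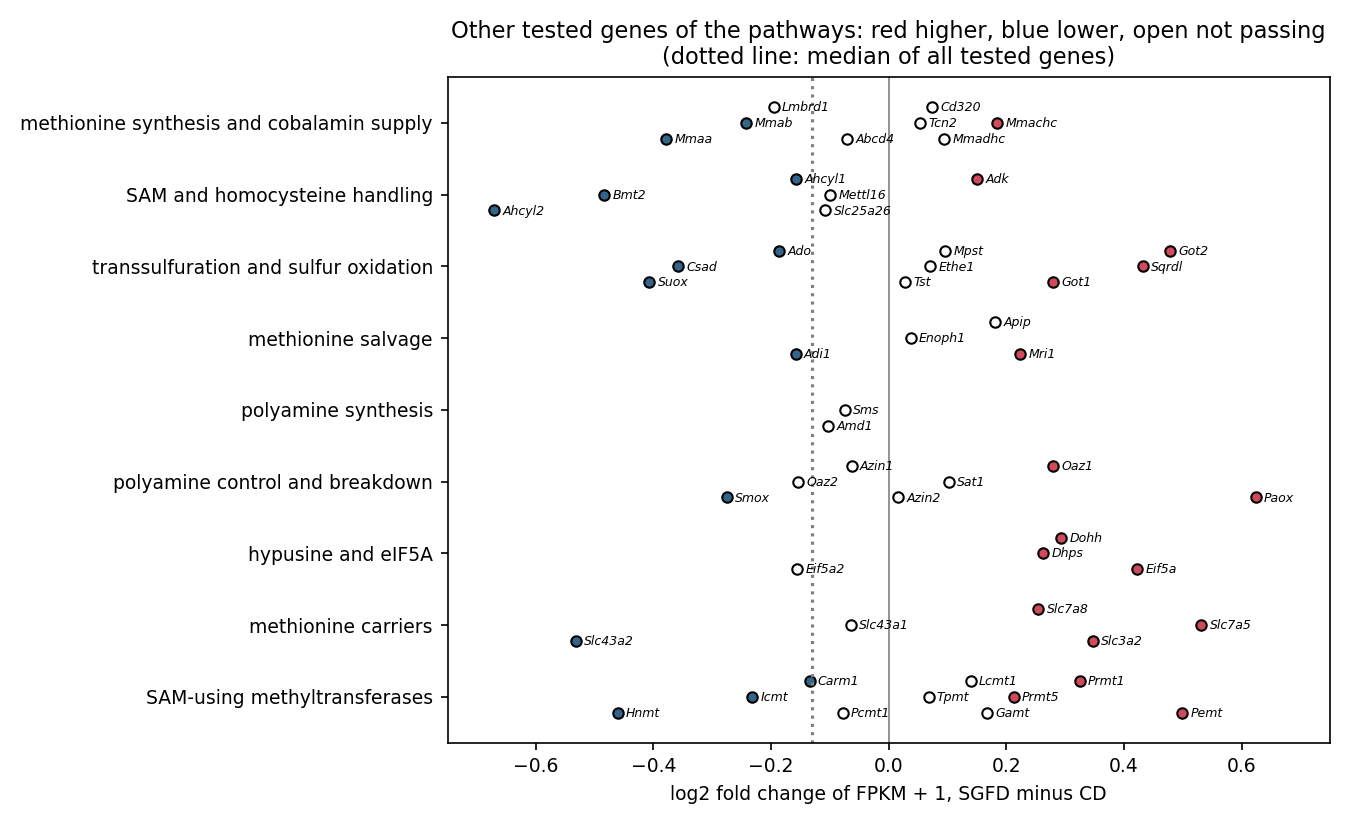
Log2 fold change of FPKM + 1, SGFD minus CD (horizontal axis), of tested genes of the wider lists that are reported here, 1 list a row; red points are higher, blue lower and open points did not pass. The hypusine row has 3 red points and no blue one, and Ahcyl2 is the leftmost point at -0.67.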

How the data were processed

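RNA from sorted bone marrow cells was measured by sequencing in 6 libraries, 3 per diet, from RNA prepared, per the labels, with a kit that keeps strand. Tools given in the submitters' processing notes are HISAT2, StringTie and fastp, with mm10 and GRCm38 as builds. No source used here states the unit of the deposited values. It was taken as FPKM from the values the authors deposited. For all 15509 genes above 0 in any library, values were whole multiples of 1 fragment's worth within 0.02 fragments. A gene above 0 in only 1 library meets this by construction, and one above 0 in few libraries can hardly fail. Of 300 genes drawn from those above 0 in all 6 libraries and with smaller counts, then perturbed, 0 were so within the same range of counts. That limit on the count was not set for the deposited values. The recovered counts are fixed up to a whole-number factor per gene.

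Log2(FPKM + 1) was fitted with limma 3.58.1 in R 4.3.3 (empirical Bayes with trend and robust settings) for the 10620 genes that reached 1 FPKM in 3 or more libraries, and p-values were Benjamini-Hochberg adjusted over them, with a threshold of 0.05. The fit was also run on simulated data with a common SD, few changed genes and no shared shift or length trend. That setting differs from these data, so no conclusion is drawn from it. Ratios were tested by exact two-sided permutation. The 17 alternatives were 2 other filters (none, or 5 FPKM), pseudocounts of 0.1 and 0.01, 3 scalings (median-ratio, upper-quartile, quantile), no variance trend, array quality weights, the replicate number as a block, removal of the length trend, and each library left out. Lengths are of the longest GENCODE transcript per symbol (99.2% of tested genes); coordinates and promoter windows are RefSeq's for GRCm38.p6.

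The members and lists were chosen with earlier results of these data known. Named from each wider list are up to 4 tested genes of smallest p among those that passed with groups that do not overlap; others named complete a small count or belong to the genes that kept their call. A few genes counted in the lists are not reported by name here.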

Additional observations from a re-analysis of the deposited data

How the results depend on the processing

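Counts over all genes (1875 higher and 4438 lower) moved most with scaling: median-ratio scaling gave 3054 higher and 2844 lower, quantile normalization 2552 lower and removal of the length trend 2388 lower. The share of higher among calls was 29.7% as deposited and 51.8%, 47.0% and 52.5% under these settings, and the median log2 fold change of all genes -0.13 against -0.01, -0.02 and -0.00. The same settings gave 8, 6 and 7 lower genes in the wider lists (16 as deposited). Direction turned for Mtr with the length trend removed (0.0732), Mtap under median-ratio scaling (0.0592) and with the length trend removed (0.0039), Ado under quantile normalization (0.0424) and with the length trend removed (0.0013), and Carm1 under median-ratio scaling (0.00) and with the length trend removed (0.0004); the cause was not tested. Of the members' fold changes under the alternatives, 129 kept direction and side of the threshold, 3 turned, 3 passed newly and 1 was lost. Leaving out 1 library gave 1596 to 1922 higher and 3588 to 4606 lower genes, 3 and 3 members, and 12 to 19 higher and 11 to 14 lower wider genes. The log2 difference of Ahcy to Cbs ranged from -0.4605 (without CD replicate 1) to 0.912, resting on few Cbs fragments. Libraries with the same replicate number did not deviate together (correlations of deviations of -0.00677, -0.227 and -0.133). Between unlike numbers the correlations ran from -0.0948 to 0.216. Deviations were taken from means of 3 libraries, so these values cannot settle whether the numbers pair libraries. With the replicate block 1706 genes were higher and 4087 lower, with 3 and 3 members and 14 and 13 wider genes.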
